A study of Caenorhabditis elegans with 11 samples.

Results

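In adult *Caenorhabditis elegans*, polysome RNA was set against monosome RNA in control animals, to see which messages were found with several ribosomes and which with a single one. The comparison used 4 of the 11 libraries of the series, control polysome replicates 1 and 2 and control monosome replicates 1 and 2, paired by replicate number, and no library from *xpo-1* RNAi. All animals were wild type (N2 Bristol). They were synchronized with hypochlorite, grew up on *Escherichia coli* OP50 and spent 96 hours at 20°C, from day 1 to day 5 of adulthood with daily transfers, on *E. coli* HT115 with the RNAi vector L4440 left empty. Lysates made with cycloheximide, which holds ribosomes on their messages, were spun through sucrose gradients, and polyadenylated RNA of the monosome and the polysome fraction was sequenced. The control total RNA libraries (2), from lysate set aside before the gradient, are given as levels only. Of the 46756 genes in the count tables, 14510 had at least 10 counts in at least 2 of the 4 libraries and were tested.

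A ribosome covers a short stretch of coding sequence, so an actively translated message usually carries several ribosomes and sinks deep into the gradient, while a message with a single ribosome stays in the monosome peak. The fractions are defined by sedimentation alone: RNA in any other particle as heavy as a ribosome or a polysome is collected with them. In the worm's germ line, many maternal messages are stored and held untranslated by RNA-binding proteins until the oocyte matures or the embryo needs them, and ribosomes inside mitochondria, a separate kind, translate the messages of the mitochondrial genome.

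Library totals were 16860796 to 19899590 counts in the 4 libraries. Levels are given as CPM, a gene's count scaled to the library total, and are not corrected for gene length, so they were compared within a gene; where a gene is named for the highest CPM of its list, this says nothing of the number of its messages. The log2 ratio is polysome over monosome RNA, from a fit that also holds the replicate number (the block) and in which the median over all genes tested was 0.01; it is a relative quantity, and an equal loss of all messages from a fraction would not show. Calls needed a fold above 1.5 and, by edgeR's quasi-likelihood test, a p below 0.05 after Benjamini-Hochberg adjustment over all 14510 genes. By this rule 8229 of 14510 genes (56.7%) were called, 4082 (28.1%) higher and 4147 (28.6%) lower in polysome RNA, and 8201 of the calls had the same direction in both pairs. In 10127 genes (69.8%) both polysome CPM values lay on the same side of both monosome values, which is what is meant below by fractions that did not overlap. Log2 ratios ran from -2.23 at percentile 5 to 1.96 at percentile 95. With so many genes called, a single call says little, and the counts below from this fit are to be read against 28.1% and 28.6%. Counts from other fits are to be read against the totals of the same fit. Without the block the counts were 2139 higher and 2653 lower. Leaving out 1 library, also without the block, gave 1372 higher and 1046 lower without control monosome replicate 1, 1799 and 2055 without control monosome replicate 2, 2179 and 2475 without control polysome replicate 1, and 1258 and 1441 without control polysome replicate 2. No call turned to the opposite direction in any of these fits. Of the genes tested, 203 passed the count minimum through the polysome libraries only and 598 through the monosome libraries only, and such genes had to differ.

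The messages of the mitochondrial genome had the lowest ratios of any gene list. They encode core subunits of the respiratory chain and of ATP synthase and are translated inside mitochondria. All 12 that were tested were called lower in polysome RNA, with a median log2 ratio of -4.66. Of these, *ND4L*, a complex I subunit with 7.94 and 8.28 CPM in monosome RNA and 0.302 and 0.534 CPM in polysome RNA, passed the count minimum through the monosome libraries only and had to be lower. *COX1*, the catalytic subunit of cytochrome c oxidase (mitochondrial genome, 7827 to 9428, build WBcel235), had 9987 and 8477 CPM in monosome RNA and 454 and 908 CPM in polysome RNA (log2 ratio -3.70, SE 0.18, adjusted p = 1.38e-93). *CYTB*, cytochrome b, had 7804 and 6807 CPM in monosome RNA against 212 and 596 CPM in polysome RNA (log2 ratio -4.22, SE 0.19, adjusted p = 5.41e-105). *ND1*, a complex I subunit, had 1643 and 1151 CPM against 15.3 and 48.2 CPM (log2 ratio -5.51, SE 0.26, adjusted p = 7.79e-96). In each of these the higher polysome value was far below the lower monosome value, and replicate 2 was the higher polysome library. The log2 ratios reached -5.90 in *ND2*, another complex I subunit, and -5.77 in *ATP6*, a subunit of ATP synthase, and the smallest difference was that of *COX1*. Together these 12 messages took 3.64% and 3.10% of the counts in monosome RNA, 0.0969% and 0.231% in polysome RNA, and 0.677% in each total RNA library, so total RNA lay between the fractions. *ND1* and *ATP6*, *ND3* and *ND5*, and *ND4L* and *ND6* overlap in the count tables, and their reads may be shared. All 12 calls held without the block and when any 1 library was left out. Whether the monosome fraction also held mitochondrial particles was not tested.

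**Figure D1:**
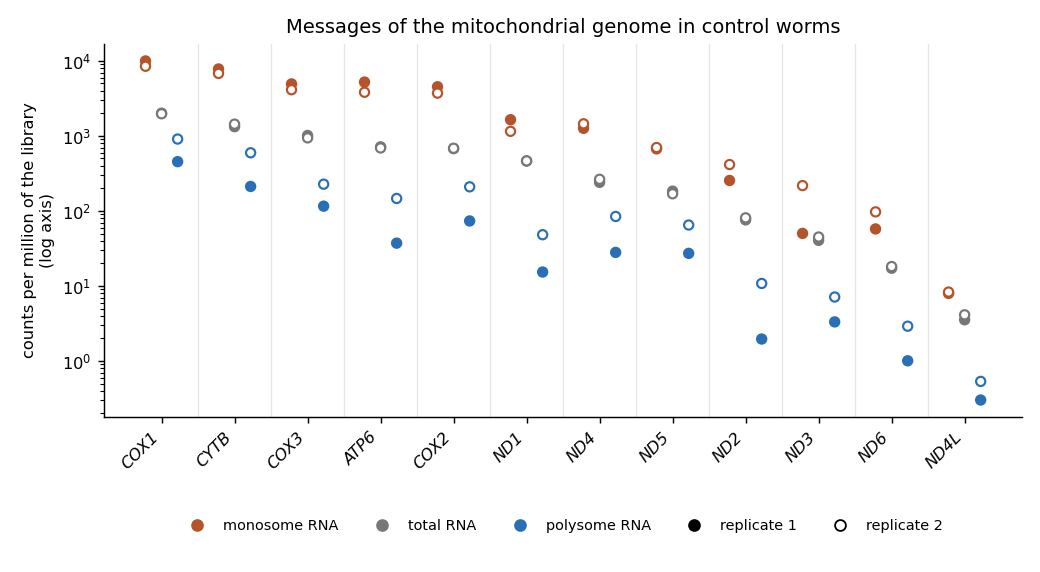
CPM (log axis) of the 12 mitochondrial messages in each of the 6 control libraries; colours give the RNA kind, and filled and open points give replicates 1 and 2. For every gene both polysome points lie below both total RNA points, and both total RNA points below both monosome points; *COX1* has 9987 and 8477 CPM in monosome RNA and 454 and 908 CPM in polysome RNA.

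RNAs with no coding sequence lay on the same side. Of 180 genes annotated as ncRNA, lincRNA, antisense RNA, snoRNA, snRNA, miRNA or piRNA, 149 were called lower and 3 higher, with a median log2 ratio of -2.30. Over the 64 with at least 10 counts in all 4 libraries, 47 were lower, 3 were higher and the median was -1.40. Among 451 pseudogenes, 391 were lower and 1 was higher (median -2.19), and over the 214 with at least 10 counts in every library the median was -1.99. Polyadenylated RNA was sequenced, so most mature small RNAs are not in these libraries, and 29 of the 180 overlap another counted gene.

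Coding length went with the ratio in 2 steps. The shortest coding sequences were lower in polysome RNA: of 25 protein-coding genes with under 120 nt, 17 were called lower and 1 higher (median log2 ratio -1.58), and of 20 with 120 to under 150 nt, 11 were lower and 1 higher (median -1.66). In the next classes the median was positive, 0.54 for 150 to under 180 nt (56 genes), 0.54 for 180 to under 210 nt (110 genes) and 1.04 for 210 to under 240 nt (172 genes). These narrow classes were drawn after the data were seen. Over the 45 genes under 150 nt, 24 had at least 10 counts in all 4 libraries, and their median was -0.92, with 13 lower and 2 higher. Above 600 nt the ratio fell with length, so that the class medians were 0.77 at 300 to under 600 nt, 0.30 at 600 to under 1000 nt, 0.01 at 1000 to under 1500 nt, -0.29 at 1500 to under 3000 nt, -0.79 at 3000 to under 6000 nt and -0.85 at 6000 nt and over. In the class of 300 to under 600 nt, 50.5% of 2329 genes were called higher and 14.5% lower. Of the 158 genes of 6000 nt and over, 0.633% were called higher and 63.3% lower. The decline was in both pairs and steeper in pair 2, where the longest class had a median of -1.26 against -0.37 in pair 1. Across 13849 protein-coding genes Spearman's rho between coding length and the log2 ratio was -0.359 (Pearson's r -0.315), which is a description, since all genes share the same 4 libraries. It was -0.278 with the shortest annotated coding transcript in place of the longest.

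The annotated 3′ UTR went the same way within coding-length classes. Among genes with 1500 to under 3000 nt of coding sequence, the median log2 ratio was 0.15 for those with a 3′ UTR under 100 nt (713 genes) and -0.66 for those with 400 nt and over (535 genes). In the class of 300 to under 600 nt the same medians were 0.99 (944 genes) and 0.07 (149 genes). Over all genes with an annotated 3′ UTR, rho was -0.260 (12928 genes), and with 5′ UTR length it was -0.045 (11887 genes). Library preparation bias by length, RNA integrity and annotation quality were not tested.

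**Figure D2:**
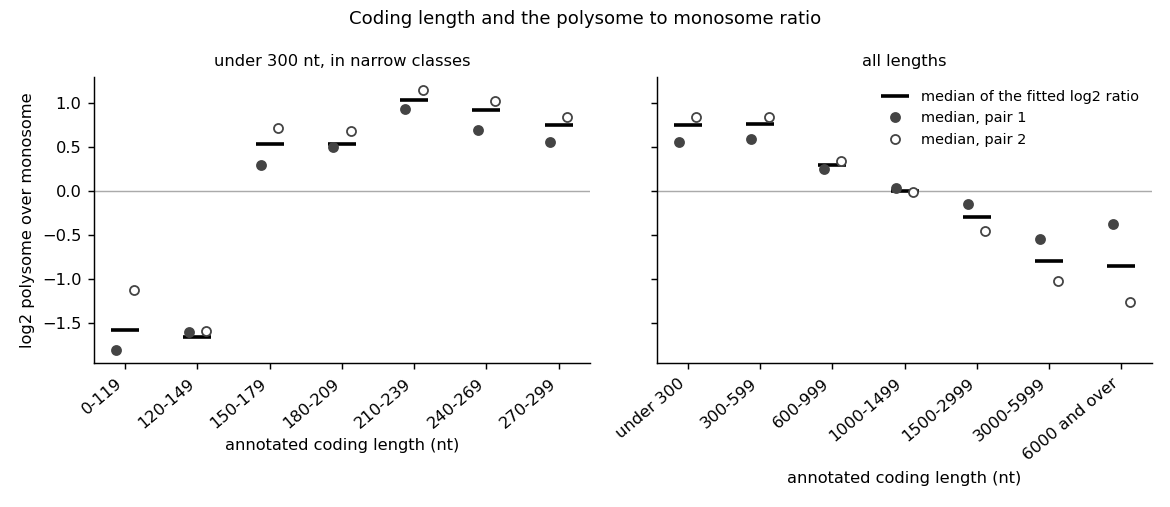
Median log2 ratio of polysome over monosome RNA by annotated coding length, for narrow classes under 300 nt (left) and for all lengths (right); bars give the fitted median and points the medians of replicate pairs 1 and 2. In the left panel the medians are -1.58 and -1.66 in the classes under 150 nt and lie between 0.54 and 1.04 in the others, and the right panel falls from 0.77 at 300 to under 600 nt to -0.85 at 6000 nt and over.

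The cytosolic ribosomal proteins, the protein parts of the ribosome itself, were higher in polysome RNA almost as a whole. Of 83 tested, 75 were called higher and 2 lower, with a median log2 ratio of 1.32 (0.75 after subtracting the median of all protein-coding genes of the same length class). They took 22.2% and 23.8% of the counts in polysome RNA, 10.4% and 12.3% in monosome RNA and 17.2% and 18.8% in total RNA. *rpl-36.A*, of the large subunit, had 428 and 733 CPM in monosome RNA and 2072 and 2574 CPM in polysome RNA (log2 ratio 2.18, SE 0.19, adjusted p = 9.84e-27). *rps-5*, of the small subunit, had 2739 and 2914 CPM and 5167 and 5384 CPM (log2 ratio 1.04, SE 0.16, adjusted p = 1.28e-09). The fractions did not overlap in either gene, and both subunits had similar medians, of 1.35 over 51 large-subunit and 1.31 over 32 small-subunit genes. With 1 library left out, 55 to 74 were called higher, the fewest without control polysome replicate 1, and the call of *rps-5* was lost without control polysome replicate 1 or 2.

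The 2 genes called lower were *rpl-41.1* and *rpl-41.2*, near-identical copies whose 69 nt of annotated coding sequence were the shortest of the list. *rpl-41.2* (chromosome I, 4790292 to 4790649) had 9742 and 9184 CPM in monosome RNA, more than in total RNA (2517 and 2759 CPM), and 1339.7 and 1488 CPM in polysome RNA (log2 ratio -2.61, SE 0.16, adjusted p = 6.18e-54). *rpl-41.1* (chromosome I, 4789190 to 4789592) had 979 and 1100.4 CPM in monosome RNA and 145 and 151 CPM in polysome RNA (log2 ratio -2.68, SE 0.23, adjusted p = 1.25e-29). The next shortest, *rpl-39*, had 1916 and 1127 CPM in monosome RNA and 1850.5 and 1894 CPM in polysome RNA, and these values overlapped (log2 ratio 0.49, SE 0.18, adjusted p = 0.017). *rps-29*, with 171 nt, was called higher, from 1128 and 1329 CPM to 1972 and 1997 CPM (log2 ratio 0.83, SE 0.18, adjusted p = 2.64e-05), a call lost without control polysome replicate 1 or 2. *rpl-39* and *rps-29* were chosen for their length after values were seen. The members of 2 other duplicated pairs had unlike ratios, lower in the X-linked copy than in the autosomal one. *rpl-11.1* had 818 and 699 CPM in monosome RNA and 2609.9 and 2912 CPM in polysome RNA (log2 ratio 2.004, SE 0.19, adjusted p = 2.89e-24), while its paralog *rpl-11.2*, with the same coding length of 591 nt, had 432 and 601 CPM and 301 and 583 CPM, which overlapped (log2 ratio -0.14, SE 0.22, adjusted p = 0.59). The pair of genes for L23A showed the same layout, with a log2 ratio of 1.81 in *rpl-25.2* and -0.17 in *rpl-25.1* (adjusted p = 0.58); this pair was chosen after values were seen. The difference between the members of each pair was not tested, and reads of similar copies may have been counted for either.

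In the fit with the block, other parts of the translation machinery leaned towards polysome RNA less strongly. Of 36 initiation factors, which bring the ribosome to the start codon, 16 were called higher and 3 lower (median log2 ratio 0.41); with 1 library left out 5 to 9 were called higher, the fewest without control monosome replicate 2. Without control monosome replicate 2, the share of initiation factors called higher was close to that of all genes. *iff-1*, a germline form of eIF5A, had 848 and 593 CPM in monosome RNA and 1888 and 2305 CPM in polysome RNA (log2 ratio 1.69, SE 0.19, adjusted p = 9.92e-17). On the other side stood *ife-5*, a germline cap-binding protein, with 50.9 and 40.999 CPM and 11.6 and 9.90 CPM (log2 ratio -1.96, SE 0.31, adjusted p = 1.66e-09), and *eif-4A3*, a helicase of the exon junction complex, with 399.3 and 389 CPM and 115.1 and 97.7 CPM (log2 ratio -1.76, SE 0.24, adjusted p = 1.10e-11). In all 3 genes the fractions did not overlap. The other 4 cap-binding *ife* genes were called higher, but with 1 library left out 0 to 3 were, with 0 without control monosome replicate 2. Among 8 elongation and termination factors 3 were higher and 0 lower. With 1 library left out 1 to 3 were higher and 0 to 1 lower, and 1 was lower with scaling by library totals alone. The gene with the highest CPM, *eef-1A.1*, which delivers tRNA to the ribosome, had 7814 and 6804 CPM in monosome RNA, 10939 and 8748 CPM in polysome RNA and 14479.7 and 14265 CPM in total RNA, above both fractions (log2 ratio 0.56, SE 0.14, adjusted p = 2.64e-04), and did not reach a fold of 1.5. Aminoacyl-tRNA synthetases, which charge tRNAs with amino acids, split by their numbers: of 20 genes with the suffix 1, 11 were called higher and 1 lower (median 0.72), and of 11 with the suffix 2, 0 higher and 4 lower (median -0.28). The suffix 2 marks the mitochondrial enzyme for most amino acids. Without control monosome replicate 1, the share of suffix 1 genes called higher was close to that of all genes. Without the block 5 of the suffix 1 genes were higher, and with 1 library left out 2 to 3, the fewest without control monosome replicate 1. In none of these fits was a suffix 2 gene called higher, and 0 to 3 were called lower with 1 library left out. Nuclear-encoded proteins of the mitochondrial ribosome were higher in 33 and lower in 1 of 69 cases (median 0.62, 0.17 after the length subtraction). With 1 library left out their median ran from 0.51 to 0.90. Without control polysome replicate 2, their share called higher was close to that of all genes.

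Messages that the oocyte stores under the control of RNA-binding proteins had lower levels in polysome than in monosome RNA. Of 51 tested, 45 were called lower and 0 higher in polysome RNA, with a median log2 ratio of -1.34, and subtracting the length-class median left -1.26. *puf-5*, a PUF-family repressor of oocyte messages (chromosome II, 8575541 to 8577732), had 2312 and 2052 CPM in monosome RNA, 1583 and 1204 CPM in total RNA and 691 and 404 CPM in polysome RNA (log2 ratio -1.91, SE 0.20, adjusted p = 2.05e-20). *rme-2*, the receptor through which oocytes take up yolk, had 2527 and 2624 CPM, 1463 and 1149.8 CPM and 778 and 470.0 CPM in the same order (log2 ratio -1.95, SE 0.19, adjusted p = 4.17e-22). In both genes the fractions did not overlap, total RNA lay between them, and polysome replicate 1 was above replicate 2. *puf-7*, a relative of *puf-5*, fell from 527 and 473 CPM to 117 and 62.6 CPM (log2 ratio -2.40, SE 0.25, adjusted p = 1.62e-20). *egg-5*, a pseudophosphatase of the egg-to-embryo transition, had 587 and 496 CPM and 122 and 80.5 CPM (log2 ratio -2.31, SE 0.24, adjusted p = 1.25e-19). *nos-2*, a Nanos-family protein whose maternal message is translated in the primordial germ cells of the embryo, had 179 and 167 CPM in monosome RNA and 44.1 and 23.2 CPM in polysome RNA (log2 ratio -2.29, SE 0.28, adjusted p = 1.32e-14). The PUF group named next is not wholly part of the 51, since its highest log2 ratio was 0.36, against -0.24 in the list. By role, 7 of 7 CCCH zinc-finger proteins of oocyte and embryo (the *oma*, *mex*, *pos-1* and *pie-1* genes) were called lower. So were 7 of 10 PUF-family genes and 7 of 9 cyclins and CDC25 phosphatases. These counts became 1 to 7, 5 to 6 and 0 to 7, when single libraries were left out, each lowest without control monosome replicate 1. Without the block 37 of the 51 were lower, and with 1 library left out 17 to 43, the fewest without control monosome replicate 1; none was called higher in these fits. The medians of the pairs were -1.15 in pair 1 and -1.57 in pair 2.

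Eggshell messages, many of them also made in the oocyte, were called lower in 12 of 21 cases (57.1%) and higher in 6 (28.6%, close to the share of all genes), with a median of -0.69. Fits with 1 library left out gave 5 to 10 lower and 3 to 6 higher, both fewest without control monosome replicate 1. *cpg-2*, a chondroitin proteoglycan of the eggshell, had 11157 and 9578 CPM in monosome RNA and 2904 and 1881 CPM in polysome RNA (log2 ratio -2.01, SE 0.16, adjusted p = 2.83e-35). *cbd-1*, a chitin-binding protein of the vitelline layer, had 4957 and 5283 CPM and 1262 and 756 CPM (log2 ratio -2.25, SE 0.18, adjusted p = 2.11e-34). *perm-4*, of the vitelline layer, the outermost one, was the reverse, with 486 and 428 CPM in monosome RNA and 2676 and 1673 CPM in polysome RNA (log2 ratio 2.35, SE 0.20, adjusted p = 7.91e-30). *perm-2*, of the same layer, had 1035 and 761 CPM and 2876 and 1899 CPM (log2 ratio 1.53, SE 0.19, adjusted p = 5.84e-15; chosen after values were seen). In none of the 4 genes did the fractions overlap, and all 4 calls held without the block and with any 1 library left out. The annotated coding lengths were 1575 nt in *cpg-2*, 3960 nt in *cbd-1*, 996 nt in *perm-4* and 612 nt in *perm-2*, so the 2 shorter messages were the higher ones.

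Germ granule and small RNA genes, which act in the particles around germ cell nuclei, were lower in 32 and higher in 2 of 46 cases (median -0.96, -0.63 after the length subtraction). Argonautes, the proteins that carry small RNAs, made up 14 of these, and 11 were lower and 0 higher. *wago-4* had 479 and 557 CPM in monosome RNA and 97.7 and 66.96 CPM in polysome RNA (log2 ratio -2.54, SE 0.25, adjusted p = 1.78e-22), and *hrde-1*, a nuclear Argonaute, 1513 and 1326 CPM and 355 and 191 CPM (log2 ratio -2.31, SE 0.21, adjusted p = 4.80e-25). The exceptions were *car-1*, an RNA-binding protein of germline particles, with 1286 and 1140.0 CPM and 2568 and 1835 CPM (log2 ratio 0.98, SE 0.18, adjusted p = 5.65e-07), and *pgl-2*, a germ granule component named after values were seen, with 20.3 and 32.6 CPM and 43.3 and 41.5 CPM (log2 ratio 0.86, SE 0.30, adjusted p = 0.009). Both of these calls were lost in some fits with 1 library left out: *car-1* without control monosome replicate 2 or control polysome replicate 1, and *pgl-2* without control monosome replicate 1, control polysome replicate 1 or control polysome replicate 2, and also without the block. *cgh-1*, a helicase that guards stored messages and second to *car-1* in CPM, had 1235.2 and 827 CPM and 1221 and 817 CPM, which overlapped (log2 ratio 0.12, SE 0.20, adjusted p = 0.62). Of the 46 genes, 22 were lower without the block and 14 to 26 with 1 library left out, the fewest without control monosome replicate 1.

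Major sperm protein genes had the highest median of the gene lists. Of 29 tested, which encode the cytoskeleton and a signal of worm sperm, 28 were called higher in polysome RNA and 1 lower (median log2 ratio 2.80, 2.02 after the length subtraction). *msp-33* had 5.54 and 19.9 CPM in monosome RNA, 15.3 and 69.9 CPM in total RNA and 36.7 and 176 CPM in polysome RNA (log2 ratio 3.09, SE 0.31, adjusted p = 1.06e-20). *msp-81* had 7.62 and 39.1 CPM, 20.6 and 93.7 CPM and 48.4 and 238 CPM in the same order (log2 ratio 2.77, SE 0.30, adjusted p = 5.23e-19). Within each replicate polysome RNA was highest, but replicate 2 exceeded replicate 1 in all 3 kinds of RNA: the list took 0.0102% and 0.0609% of the counts in monosome RNA, 0.0326% and 0.144% in total RNA and 0.0725% and 0.357% in polysome RNA. In RNA from whole animals, fewer cells of a type and less RNA per cell cannot be told apart. Without the block 19 were called, and with 1 library left out 0 to 28, with 0 called without control monosome replicate 1. In that fit edgeR called 1372 genes higher among all genes. The copies are near-identical, so their values are not independent. The gene called lower, *msp-74*, named after values were seen, passed the count minimum through the monosome libraries only and so had to be lower. It had 0.586 and 2.55 CPM in monosome RNA and 0.201 and 0.534 CPM in polysome RNA, with a call (log2 ratio -1.86, SE 0.53, adjusted p = 0.001) that was lost without the block, with DESeq2 and with any 1 library left out. Sperm genes outside this family were divided. Of 23 genes named *spe*, for defects in sperm formation or function, 7 were called higher (30.4%) and 3 lower, with a median of 0.036. Of 10 genes named *ssp*, a sperm-specific family, 8 were called higher and 0 lower. Their median was 1.62, and 0.85 after the length subtraction.

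**Figure D3:**
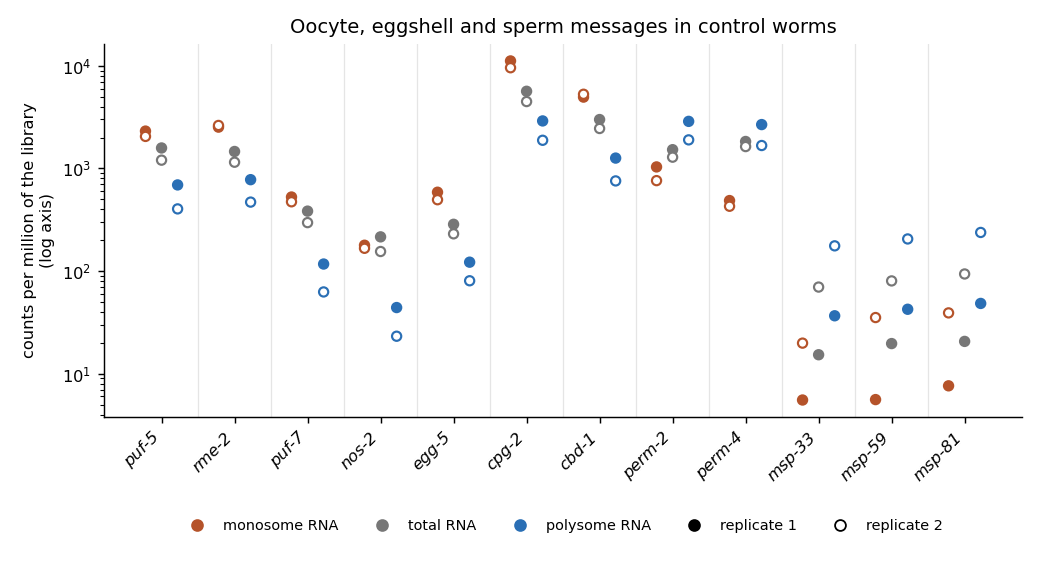
CPM (log axis) of oocyte (*puf-5*, *rme-2*, *puf-7*, *nos-2*, *egg-5*), eggshell (*cpg-2*, *cbd-1*, *perm-2*, *perm-4*) and sperm (*msp*) messages in the 6 control libraries; colours give the RNA kind, and filled and open points give replicates 1 and 2. Polysome points lie below monosome points from *puf-5* to *cbd-1* and above them in *perm-2* and *perm-4*, and for the sperm genes replicate 2 is higher in every RNA kind.

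A list of early embryo genes had 22 called higher and 6 lower of 42 (median 0.75). Without the block 8 were higher, against 2139 of 14510 over all genes. With 1 library left out the median ran from 0.44 to 1.01. Whether these messages came from embryos carried by the adults was not tested. *sdz-27*, a gene switched on in the zygote, had 2.61 and 3.03 CPM in monosome RNA and 24.9 and 29.3 CPM in polysome RNA (log2 ratio 3.40, SE 0.32, adjusted p = 2.50e-24). The members of the list with the highest CPM, *nos-1* and *ama-1*, were called lower. *nos-1*, a Nanos-family gene, had 178 and 148 CPM and 22.3 and 13.05 CPM (log2 ratio -3.11, SE 0.30, adjusted p = 2.04e-23). *ama-1*, the largest subunit of RNA polymerase II, had 685 and 543 CPM and 144 and 95.3 CPM (log2 ratio -2.24, SE 0.24, adjusted p = 2.29e-19). There was no overlap between fractions in these 3 genes. Genes of the larval molting cycle, a list that marks younger stages, were higher in 39 and lower in 12 of 88 (median 0.55). Without the block 25 were higher and 7 lower, and with 1 library left out the median ran from 0.28 to 0.86. In the fit without control monosome replicate 1, neither this list nor the early embryo list was called higher more often than all genes. Histone genes, most of whose core members make messages without a poly(A) tail, were called higher in 39.5% and lower in 28.9% of 38 cases, the latter close to the share of all genes. Of the 38, 2 passed through the monosome libraries only, and fits with 1 library left out gave 9 to 10 higher and 1 to 9 lower, the fewest lower without control monosome replicate 1. *his-24*, a linker histone, had 128 and 165 CPM and 635 and 531 CPM (log2 ratio 2.13, SE 0.24, adjusted p = 6.82e-18), and *hil-4*, another, 1501 and 1005 CPM and 437 and 317 CPM (log2 ratio -1.58, SE 0.21, adjusted p = 4.66e-13; lost without control monosome replicate 1). Of 6 vitellogenins, the yolk proteins made by the intestine, 1 was called higher and 0 lower. This was *vit-4*, with 659.7 and 593 CPM in monosome RNA and 1001 and 808 CPM in polysome RNA (log2 ratio 0.66, SE 0.20, adjusted p = 0.003), and the call was lost without the block and with any 1 library left out.

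Among the 12 called protein-coding genes with the highest log2 ratios (mean of at least 10 CPM), 7 lie on the X chromosome, all have 312 to 969 nt of annotated coding sequence, and the log2 ratios run from 3.18 to 3.68. *ule-5*, of a family found in the fluid of the uterus, had 68.5 and 58.3 CPM in monosome RNA, 397 and 319.9 CPM in total RNA and 737 and 621 CPM in polysome RNA (log2 ratio 3.56, SE 0.25, adjusted p = 2.92e-43). *phat-4*, a product of the pharyngeal glands, had 1.01 and 2.66 CPM in monosome RNA and 11.16 and 32.2 CPM in polysome RNA (log2 ratio 3.68, SE 0.33, adjusted p = 2.33e-26), and *nspc-18*, of a nematode-specific peptide family, 1.65 and 2.39 CPM and 20.0 and 19.9 CPM (log2 ratio 3.45, SE 0.32, adjusted p = 7.17e-25). Monosome and polysome values did not overlap in any of these. The others were *sdz-27*, *msp-152*, *F54F7.2*, *ZK813.7*, *ZK813.3*, *Y62H9A.4*, *C17G1.2*, *F41F3.3* and *H23N18.5*, with log2 ratios of 3.40, 3.39, 3.58, 3.56, 3.18, 3.26, 3.22, 3.22 and 3.20. *msp-152* was no longer called without control monosome replicate 1. Of the 12 lowest, 10 are mitochondrial and the other two are *Y54G11A.14* (log2 ratio -4.24, SE 0.35, adjusted p = 8.99e-32) and *C04G6.6* (log2 ratio -3.84, SE 0.33, adjusted p = 2.09e-28). *set-9* and *set-26*, near-identical genes of a chromatin-binding SET-domain pair with 4872 and 4938 nt of coding sequence, were picked from the nuclear genes after values were seen. *set-9* had 1009.6 and 788 CPM in monosome RNA, 241 and 197 CPM in total RNA and 101 and 51.7 CPM in polysome RNA (log2 ratio -3.49, SE 0.24, adjusted p = 7.70e-44), and *set-26* had 823 and 598, 214 and 190.4 and 89.2 and 52.1 CPM (log2 ratio -3.23, SE 0.25, adjusted p = 1.75e-36).

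Grouping all protein-coding genes by the letters of their symbols (families with at least 10 genes tested, a grouping made after values were seen) put *msp* at the top by median, followed by *nspc*, *srlf*, *nspb*, *fipr* and *ttr*, families of small proteins. The *ttr* family, whose transthyretin-related members are secreted carrier-like proteins, had 47 of 49 called higher and 1 lower (median 1.80), and the nematode-specific peptide family *nspc* had 13 of 13 higher (median 2.67), a count that stayed at 13 with any 1 library left out. For *ttr* it was 27 to 37, the fewest without control polysome replicate 2. Calls in the same direction were found in *srlf* (11 of 12, median 2.30), *fipr* (13 of 17, median 1.99) and *nspb* (11 of 11, median 2.19), of which 0 to 10 were called with 1 library left out, with 0 without control monosome replicate 1. The 7 lowest medians were those of *ced*, *bath*, *gcy*, *klp*, *lido*, *ints* and *set*. Among them were *ced*, genes of programmed cell death and engulfment, with 7 of 12 lower (median -1.59), *bath*, proteins with BTB and MATH domains, with 24 of 32 lower and 2 higher (median -1.16), *klp*, kinesins, with 8 of 12 lower (median -0.98), and *set*, SET-domain genes, with 16 of 29 lower (median -0.82). Fits that left out 1 library gave 7 to 9 *srlf* and 3 to 13 *fipr* genes higher, the fewest without control monosome replicate 2 and control monosome replicate 1. In the same fits 4 to 7 *ced*, 11 to 17 *bath* and 6 to 11 *set* genes were lower, each fewest without control monosome replicate 1, and 5 to 6 *klp* genes, fewest without control monosome replicate 2. After the length subtraction the *bath* median was -1.36 and the *ttr* median 1.05.

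Several gene lists of secreted products leaned towards polysome RNA, while the basement membrane list and the eggshell list above had negative medians. After the length subtraction the basement membrane median was 0.55 and the eggshell median -1.02. Of 79 immune effectors and antimicrobial peptides 60 were called higher and 0 lower (median 1.53, 0.79 after the length subtraction), and 34 to 44 were higher with 1 library left out, the fewest without control monosome replicate 2. *fipr-21*, a small peptide of the fungus-induced family, had 37.6 and 46.1 CPM in monosome RNA and 145 and 308 CPM in polysome RNA (log2 ratio 2.48, SE 0.27, adjusted p = 6.05e-18), and *nlp-33*, an antimicrobial peptide of the epidermis, 39.3 and 43.3 CPM and 148 and 238 CPM (log2 ratio 2.33, SE 0.27, adjusted p = 9.92e-16). The fractions did not overlap in either gene. Cuticle collagens, the proteins of the worm's outer coat, were called higher in 75.7% and lower in 6.76% of 148 genes (median 1.13). *col-140* had 2179 and 2019 CPM and 3324 and 3955 CPM (log2 ratio 0.93, SE 0.17, adjusted p = 3.19e-07), a call lost without control polysome replicate 1 or 2. Without the block 42 collagens were higher, and with 1 library left out 22 to 92, the fewest without control polysome replicate 2. Total RNA had more collagen counts in replicate 2 (5.38%) than in replicate 1 (3.32%). Long matrix proteins of the basement membrane were divided, 8 lower and 5 higher of 20 (0 to 2 and 1 to 3 with 1 library left out, both fewest without control monosome replicate 1; median -0.30, but 0.07 in pair 1 alone and 0.39 without control monosome replicate 2). *let-2*, a type IV collagen with 5280 nt of coding sequence, had 492 and 449.6 CPM in monosome RNA and 153 and 204 CPM in polysome RNA (log2 ratio -1.28, SE 0.23, adjusted p = 3.40e-07; lost without control monosome replicate 1), while *ost-1*, the small matrix protein SPARC with 795 nt, had 124 and 239.99 CPM and 355 and 583 CPM (log2 ratio 1.54, SE 0.23, adjusted p = 6.24e-10; also lost without control monosome replicate 1). Of the neuropeptides, 53 (43.1%) were higher and 2 (1.63%) lower (median 0.60), yet the length subtraction left a median of -0.16; 16 to 24 were higher with 1 library left out, the fewest without control polysome replicate 2. *nlp-27*, placed in this list by its symbol alone and second to *nlp-40* in CPM, had 42.4 and 30.1 CPM and 212 and 228 CPM (log2 ratio 2.76, SE 0.28, adjusted p = 2.26e-21). C-type lectins, sugar-binding proteins many of which are secreted, were higher in 52 and lower in 7 of 98 (median 0.83); 28 were higher without the block and 20 to 27 with 1 library left out, the fewest without control polysome replicate 2. The lectin with the highest CPM, *clec-87*, a chondroitin proteoglycan, had 2994 and 2311 CPM in monosome RNA and 899.8 and 565 CPM in polysome RNA (log2 ratio -1.75, SE 0.19, adjusted p = 1.16e-18).

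Within the sarcomere, the contractile unit of muscle, small and large proteins had different medians. Of 23 genes for actins, myosin light chains, troponins and tropomyosin (median coding length 753 nt), 20 were called higher and 0 lower in polysome RNA (median 1.31). Of 12 genes for myosin heavy chains and the giant proteins of the filament lattice, 5 were lower and 0 higher (median -0.51, but 0.02 without control monosome replicate 2). *unc-27*, a troponin I, had 131 and 194 CPM in monosome RNA and 472 and 753 CPM in polysome RNA (log2 ratio 2.04, SE 0.23, adjusted p = 7.48e-17), and *cpn-3*, a calponin, 121 and 264 CPM and 534 and 854 CPM (log2 ratio 2.05, SE 0.23, adjusted p = 1.45e-17). *unc-54*, the main myosin heavy chain of the body wall with 5892 nt of coding sequence, was the reverse, with 936 and 1234.4 CPM in monosome RNA and 392 and 499 CPM in polysome RNA (log2 ratio -1.14, SE 0.21, adjusted p = 2.27e-07; lost without control polysome replicate 1). No overlap between fractions was seen in these 3 genes. The giant kinase *unc-22* had 9.86 and 30.3 CPM and 18.7 and 30.5 CPM, which overlapped (log2 ratio 0.59, SE 0.29, adjusted p = 0.071), and may share reads with an overlapping gene, *ZK829.9*. The titin-like *ttn-1* had 11.7 and 26.1 CPM and 6.08 and 11.4 CPM (log2 ratio -0.94, SE 0.28, adjusted p = 0.003), and its call was lost without the block and without control monosome replicate 1, control monosome replicate 2 or control polysome replicate 1. *act-1*, an actin, shows the spread between cultures: 78.0 and 348 CPM in monosome RNA against 354 and 453 CPM in polysome RNA gave log2 ratios of 2.28 in pair 1 and 0.56 in pair 2 (log2 ratio 1.42, SE 0.24, adjusted p = 5.32e-08), with no call without the block, without control monosome replicate 1 or without control polysome replicate 2. After the length subtraction the median of the large group was 0.34 and that of the small group 0.85. Counts moved with the library left out (in the large group to 0 to 1 higher), to 6 to 18 higher in the small group, the fewest without control polysome replicate 2, and 1 to 5 lower in the large group, the fewest without control monosome replicate 2.

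The proteasome, which degrades ubiquitin-tagged proteins, divided by subcomplex. Of the 14 subunits of the barrel-shaped core, 13 were called higher in polysome RNA and 0 lower (median 1.38, 1.08 after the length subtraction). Of the 19 genes of the regulatory cap, 6 were higher and 3 lower (median 0.41). *pas-5*, a core subunit, had 156.1 and 150.5 CPM in monosome RNA and 579 and 551 CPM in polysome RNA (log2 ratio 2.02, SE 0.23, adjusted p = 2.57e-16), and *pas-2* had 154 and 186 CPM and 545 and 553 CPM (log2 ratio 1.83, SE 0.23, adjusted p = 8.26e-14). *rpn-1*, a scaffold of the cap, had 536 and 459.7 CPM and 258 and 189.8 CPM (log2 ratio -1.03, SE 0.23, adjusted p = 2.82e-05; chosen after values were seen, and lost without control monosome replicate 1 or control polysome replicate 2). Monosome and polysome values did not overlap in these genes. Core calls numbered 11 to 13 with 1 library left out, and 2 cap genes were called higher in each of these fits; the difference between the subcomplexes was not tested. Cytosolic chaperones, which fold and protect proteins, were higher in 21 and lower in 0 of 34 (median 0.91). *daf-41*, a co-chaperone of HSP-90, had 403 and 431 CPM and 1323 and 1348 CPM (log2 ratio 1.82, SE 0.21, adjusted p = 4.98e-17), whereas *hsp-90* itself had 2326 and 2337 CPM and 2480.5 and 2884 CPM (log2 ratio 0.34, SE 0.17, adjusted p = 0.084). All 8 CCT chaperonin subunits had positive log2 ratios, and 6 were called higher; the lowest ratio among them was 0.42, and 3 to 4 were called with 1 library left out, the fewest without control monosome replicate 2. With 1 library left out, 11 to 13 of the chaperones were higher, the fewest without control monosome replicate 2. Chaperones and disulfide isomerases of the endoplasmic reticulum were higher in 11 and lower in 2 of 18 (median 0.82), and with 1 library left out 4 to 8 were higher, the fewest without control polysome replicate 2, and 0 lower. Lysosomal pump subunits and proteases were higher in 27 and lower in 2 of 50 (median 0.67). *cpl-1*, a cathepsin L, had 442 and 495 CPM and 1904 and 1587 CPM (log2 ratio 2.03, SE 0.20, adjusted p = 5.80e-22). Leaving out 1 library gave 9 to 16 of these higher, the fewest without control polysome replicate 2. Autophagy genes, which build the vesicles that feed the lysosome, lay on the other side, 14 lower and 1 higher of 28 (median -0.58). Without the block 6 were lower, and with 1 library left out the median ran from -0.79 to -0.28. In the fit without control monosome replicate 1, the share of these genes called lower was close to that of all genes. *atg-9*, the membrane protein of the pathway, had 226 and 184 CPM in monosome RNA and 53.7 and 37.4 CPM in polysome RNA (log2 ratio -2.05, SE 0.27, adjusted p = 7.24e-13). *lgg-1*, the GABARAP ortholog of the autophagosome membrane, had 440.5 and 481 CPM and 629.7 and 619.5 CPM (log2 ratio 0.58, SE 0.21, adjusted p = 0.014), under the fold for a call.

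The respiratory chain has subunits from both genomes, and the nuclear share was on the opposite side of the mitochondrial share. Of 69 nuclear genes for the chain and ATP synthase, 53 were called higher in polysome RNA and 2 lower (median 1.15, 0.53 after the length subtraction), and 30 to 41 were higher with 1 library left out, the fewest without control polysome replicate 2. *cox-7C*, a small subunit of cytochrome c oxidase, had 192 and 336 CPM in monosome RNA and 903 and 1039 CPM in polysome RNA (log2 ratio 2.07, SE 0.22, adjusted p = 2.46e-19), and *asb-1*, an ATP synthase subunit of the germ line, 151.6 and 139.7 CPM and 569.8 and 501 CPM (log2 ratio 2.01, SE 0.24, adjusted p = 4.99e-16). The fractions did not overlap in either gene, while *atp-1*, the alpha subunit of ATP synthase and the gene of the list with the highest CPM, had 2182 and 2123 CPM and 2106 and 1767 CPM and was not called (log2 ratio -0.02, SE 0.18, adjusted p = 0.93). Lipid genes split by role. Of 9 lipid-binding proteins, small carriers of fatty acids, 8 were called higher and 0 lower (median 1.99), a count of 8 also without the block and with any 1 library left out. *lbp-9* had 573 and 377 CPM and 1751 and 1508 CPM (log2 ratio 1.94, SE 0.20, adjusted p = 5.18e-20), and *lbp-2* had 94.7 and 97.5 CPM and 468 and 499 CPM (log2 ratio 2.47, SE 0.24, adjusted p = 7.42e-22). Of 7 fatty acid desaturases 1 was higher and 3 were lower, and with 1 library left out 0 to 1 and 1 to 2. *fat-1*, the omega-3 desaturase, had 753 and 474 CPM in monosome RNA and 148 and 165 CPM in polysome RNA (log2 ratio -1.80, SE 0.23, adjusted p = 3.67e-13; chosen after values were seen). *pod-2*, acetyl-CoA carboxylase with 6498 nt of coding sequence, had 2055 and 2046 CPM in monosome RNA, 598 and 680.2 CPM in total RNA and 451 and 339.6 CPM in polysome RNA (log2 ratio -2.25, SE 0.20, adjusted p = 1.30e-26). Detoxification enzymes (cytochrome P450, UGT and GST families) were higher in 68 and lower in 6 of 133 (median 0.84); 32 were higher without the block and 22 to 28 with 1 library left out, the fewest without control monosome replicate 2.

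Messages for nuclear transport, RNA processing and RNA surveillance were called lower in polysome RNA more often than higher. Among 26 nucleoporins, the proteins of the nuclear pore, 14 were called lower and 0 higher (median -0.75, -0.40 after the length subtraction). Of 9 importins and exportins 7 were lower and 0 higher (median -0.94, -0.62 after the length subtraction). *npp-8* had 517 and 431 CPM in monosome RNA and 102.9 and 77.1 CPM in polysome RNA (log2 ratio -2.27, SE 0.25, adjusted p = 1.47e-18). *xpo-2*, the receptor that returns importin alpha to the cytoplasm, had 1570.1 and 1119 CPM and 301 and 209.9 CPM (log2 ratio -2.26, SE 0.21, adjusted p = 4.40e-24). *xpo-1*, exportin 1, the gene knocked down elsewhere in the series (chromosome V, 7805064 to 7814656), had 282 and 349 CPM in monosome RNA, 270.2 and 215 CPM in total RNA and 183 and 120.4 CPM in polysome RNA (log2 ratio -0.94, SE 0.24, adjusted p = 3.53e-04). There was no overlap between fractions in these genes, but the call of *xpo-1* was lost without the block and without control monosome replicate 1, control monosome replicate 2 or control polysome replicate 2, and its log2 ratio was -0.52 in pair 1 and -1.36 in pair 2. With 1 library left out 4 to 11 nucleoporins were lower, the fewest without control monosome replicate 1, and 3 to 6 importins and exportins, the fewest without control monosome replicate 1. Of 65 splicing and processing genes 29 were lower and 10 higher (median -0.41); 13 were lower without the block and 5 to 17 with 1 library left out, the fewest without control monosome replicate 1, against 4 to 8 higher. The length subtraction left a median of -0.47 for the splicing and processing genes. Without control monosome replicate 1, their share called lower was close to that of all genes. Among them, the 7 small Sm proteins of the spliceosome core were called higher in 7 cases (median 1.203, 0.43 after the length subtraction). The 8 SR proteins, splicing regulators, were lower in 5 (median -0.66, -0.86 after the length subtraction). With 1 library left out these counts were 3 to 7, the fewest without control monosome replicate 2, and 0 to 3, with 0 without control monosome replicate 1; without the block 1 SR gene was called. *snr-6*, an Sm protein, had 139 and 109 CPM in monosome RNA and 418 and 426 CPM in polysome RNA (log2 ratio 1.91, SE 0.24, adjusted p = 6.31e-14) and overlaps *pie-1* in the count tables. *hrpu-1*, an hnRNP U homolog with 5004 nt of coding sequence, had 886 and 819 CPM and 119.6 and 73.5 CPM (log2 ratio -3.05, SE 0.24, adjusted p = 1.04e-34). Of 11 factors of nonsense-mediated decay, which removes faulty messages, 6 were lower and 0 higher (median -0.87, -0.14 after the length subtraction). Among these factors *smg-6*, the endonuclease of this decay, had 417 and 263 CPM and 78.3 and 53.4 CPM (log2 ratio -2.22, SE 0.25, adjusted p = 1.05e-16). Leaving out 1 library gave 3 to 4 lower, the fewest without control monosome replicate 1.

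The nucleolus makes ribosomes, and its messages did not follow the ribosomal proteins. Of 35 nucleolar and ribosome assembly genes 15 were called lower and 2 higher (median -0.51, -0.38 after the length subtraction), and 9 were lower without the block. With 1 library left out the median ran from -0.53 to -0.21. Without control monosome replicate 1, the share of these genes called lower was close to that of all genes. *rpoa-1*, the largest subunit of RNA polymerase I, had 279 and 223 CPM in monosome RNA and 46.2 and 42.5 CPM in polysome RNA (log2 ratio -2.36, SE 0.27, adjusted p = 6.83e-17). *fib-1*, fibrillarin, the methyltransferase of ribosomal RNA, had 2843 and 2579 CPM and 1611 and 1882 CPM (log2 ratio -0.50, SE 0.18, adjusted p = 0.010), short of a fold of 1.5. Monosome and polysome values did not overlap in either gene. Among 33 stress and longevity regulators 14 were lower and 6 higher (median -0.47). *daf-2*, the insulin receptor, had 114 and 167 CPM and 31.2 and 17.6 CPM (log2 ratio -2.41, SE 0.30, adjusted p = 1.04e-14), and *gcn-2*, a kinase that slows initiation when amino acids run short, 52.02 and 82.1 CPM and 20.5 and 15.6 CPM (log2 ratio -1.73, SE 0.30, adjusted p = 9.35e-08). *daf-16*, the FOXO factor downstream of *daf-2*, had 109 and 124 CPM and 58.5 and 43.4 CPM (log2 ratio -1.07, SE 0.28, adjusted p = 3.81e-04), and its call was lost without control monosome replicate 1, control monosome replicate 2 or control polysome replicate 2. *hlh-30*, the TFEB ortholog, had 68.6 and 62.7 CPM and 52.5 and 37.7 CPM (log2 ratio -0.42, SE 0.29, adjusted p = 0.20). *atf-4*, a stress factor, had 49.3 and 148 CPM and 56.2 and 65.3 CPM (log2 ratio -0.36, SE 0.28, adjusted p = 0.27). The first did not overlap between fractions and the second did, and neither was called. The list had 4 to 11 genes lower with 1 library left out, the fewest without control polysome replicate 2. Kinesins, dyneins and other very large cytoplasmic proteins were lower in 17 and higher in 0 of 31 (median -0.79), and the length subtraction left -0.07; 7 to 13 were lower with 1 library left out, the fewest without control monosome replicate 2. *klp-15*, a kinesin of the oocyte meiotic spindle with a near-identical copy, had 827 and 684 CPM in monosome RNA and 149 and 81.9 CPM in polysome RNA (log2 ratio -2.63, SE 0.24, adjusted p = 2.25e-26). Of 161 nuclear hormone receptors, 24.2% were lower and 6.83% higher (median -0.27), and of 94 ion channel and synaptic genes 25.5% were lower and 14.9% higher (median -0.17, 0.11 without control monosome replicate 2). Single libraries left out gave 3 to 16 receptors and 1 to 5 channel genes lower, both fewest without control monosome replicate 1. In the fit with the block the share called lower in both lists was close to that of all genes and the share called higher was below it.

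**Figure D4:**
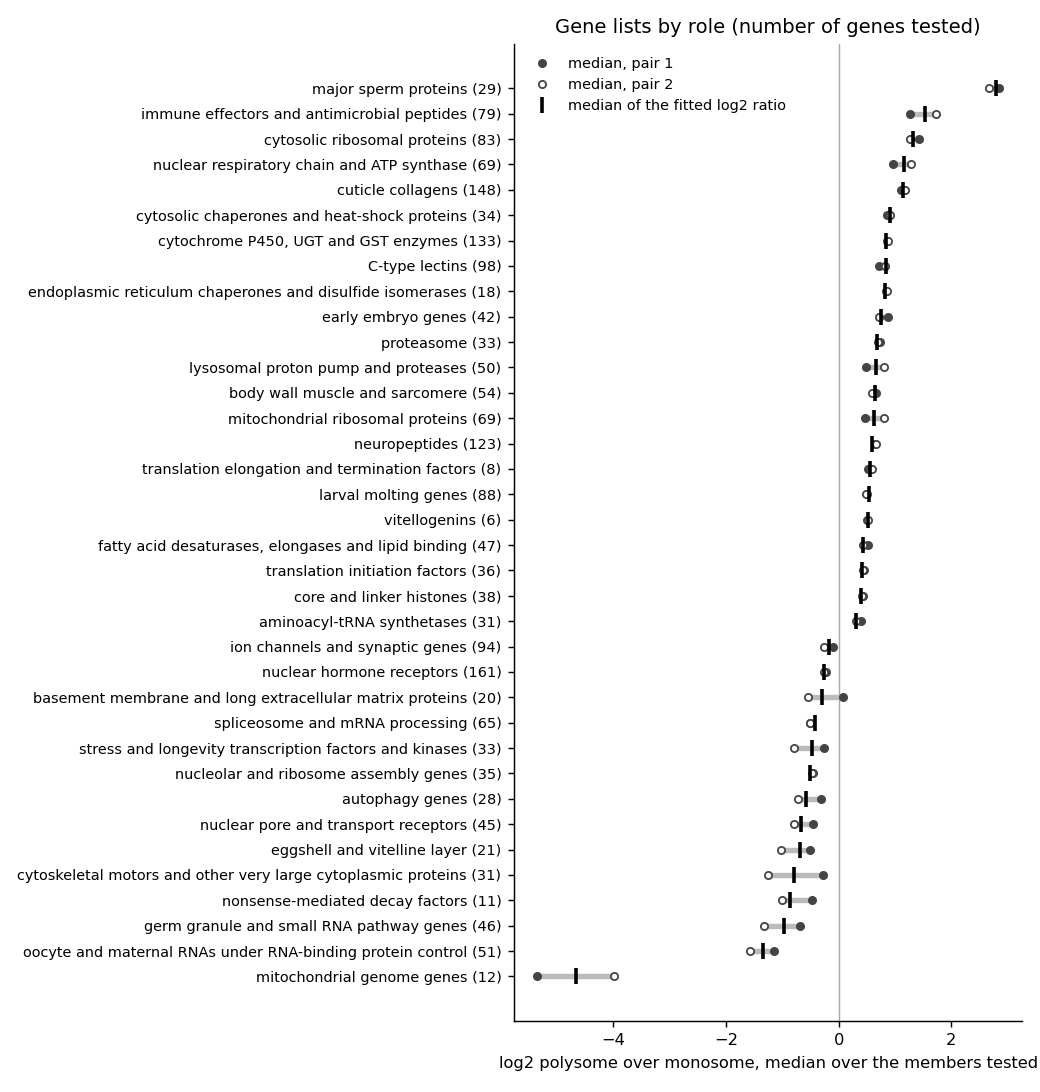
Median log2 ratio of polysome over monosome RNA for 36 gene lists, with the number of genes tested in parentheses; the tick is the median of the fitted ratios, and filled and open points are the medians in replicate pairs 1 and 2. The lists run from -4.66 for mitochondrial genome genes to 2.80 for major sperm proteins, and the points of the pairs lie on both sides of 0 only for the basement membrane list.

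X-linked genes were shifted towards polysome RNA. Of 1950 protein-coding genes of the X chromosome, 788 (40.4%) were called higher and 255 (13.1%) lower, with a median log2 ratio of 0.47. For 11887 autosomal genes the numbers were 3287 (27.7%) higher and 3326 (27.98%) lower, and the median was 0.00. The chromosomes in order of their medians were X at 0.47, V at 0.20, IV at 0.15, II at 0.02, III at -0.18 and I at -0.18, with medians for X of 0.49 in pair 1 and 0.46 in pair 2. In the worm, genes with germline expression are known to be scarce on the X chromosome. The gap was also found at matched coding length: in the class of 600 to under 1000 nt the medians were 0.86 for X (413 genes) and 0.21 for autosomes (2851 genes), and at 1500 to under 3000 nt they were 0.21 (493 genes) and -0.41 (2645 genes). Of the 7 length classes X was the lower only under 300 nt, at 0.64 against 0.76. Whether tissues of origin part X from the autosomes here was not tested. Scaling by library totals alone moved the median of all genes from 0.01 to -0.13 and that of X to 0.33.

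**Figure D5:**
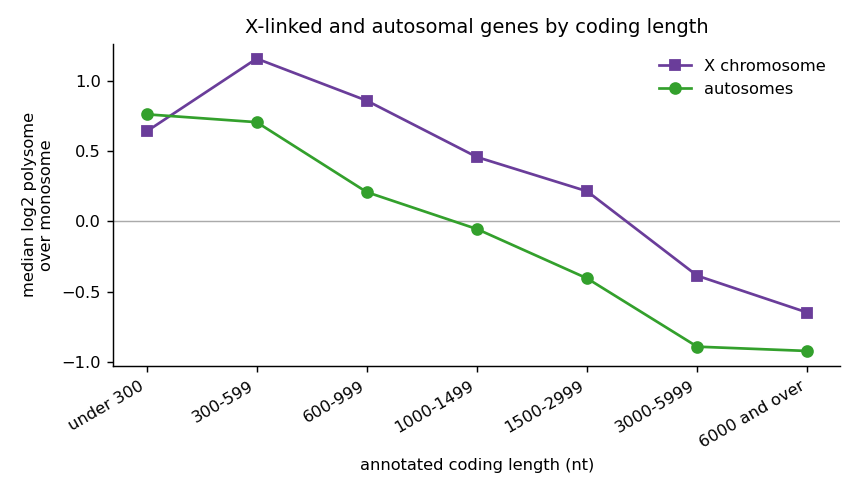
Median log2 ratio of polysome over monosome RNA by annotated coding length, for protein-coding genes of the X chromosome (squares) and of the autosomes (circles). The X line lies above the autosomal line in each class from 300 nt up, with 0.86 against 0.21 at 600 to under 1000 nt, and below it under 300 nt.

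Replicates set the limits of these values. Replicates of the same fraction differed by far more than counting error (a chi-square per degree of freedom of 56.3 for monosome and 44.5 for polysome RNA), and the log2 ratios of the 2 pairs correlated at 0.865 over the 14510 genes, with the same sign in 83.8%. The number of cultures cannot give a spread for each gene: with 4 libraries and a block, 1 residual degree of freedom remained, and edgeR took in effect a single spread for genes of the same level. The SE of a gene with unusual spread is then too small.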

How the data were processed

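RNA-seq was done on control polysome, monosome and total RNA in biological duplicate. The submitters' processing notes name Trimmomatic, STAR, featureCounts and Subread and the build WBcel235; tool versions, the strand setting and the handling of reads that match several genes are not given in the sources used here, so overlapping genes and near-identical copies are uncertain. The values used were the raw counts per gene deposited by the authors, 1 library per column; their normalized tables were not used, and 0 columns belonged to another series.

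Genes with at least 10 counts in at least 2 of the 4 libraries entered edgeR 4.0.16 (R 4.3.3), with TMM factors, a quasi-likelihood test of fraction with the replicate number as a block, with p-values adjusted by Benjamini-Hochberg across the whole table. On simulated counts the same steps recovered 47% of 100 genes changed 2-fold and 100% of 100 changed 4-fold, with 8 false calls. The simulation gave all genes a single spread, so it does not cover genes with unusual spread. The sources call the samples biological duplicates but do not say that fractions of 1 number came from 1 lysate. Deviations of same-numbered monosome and polysome libraries from their group means correlated at 0.580 over genes; with 2 pairs this is only a hint. Lists were described by counts and medians, with no test of a list. The length subtraction used the median of all protein-coding genes in the same coding-length class. CPM carries counting error, and the libraries had no molecular identifiers, so precision from depth covers counting error only.

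Named genes were the 12 called protein-coding genes with the most positive and the 12 with the most negative log2 ratio (a mean of at least 10 CPM and the same direction in both pairs), up to 2 members of each list with the highest mean CPM, up to 3 called members of each list with the largest absolute ratio, and a few fixed genes; others are marked where they appear or were taken for their role. The comparison, the lists and the tests were chosen with earlier results of these data known. Alternatives were no block, DESeq2 1.42.0, RLE factors, library totals only, 2 other count filters, all 6 control libraries, each library left out and each pair alone. Reference sequences were not used here. Tables and figures were made with Python 3.11.15, pandas 2.3.3 and matplotlib 3.10.9.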

Additional observations from a re-analysis of the deposited data

How the results depend on the processing

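Without the replicate block, 2139 genes were called higher and 2653 lower in polysome RNA, against 4082 and 4147 with it, and 58.2% of the calls held. The pairing was a hint from the data, since there are only 2 pairs. With 1 library left out (fits without the block, in which the lone library is assumed to vary like the other fraction), between 1258 and 2179 genes were higher and between 1046 and 2475 lower. By single libraries these were 1372 and 1046 without control monosome replicate 1, 1799 and 2055 without control monosome replicate 2, 2179 and 2475 without control polysome replicate 1, and 1258 and 1441 without control polysome replicate 2. DESeq2 called 3162 higher and 3394 lower, RLE factors 4141 and 4063, library totals only 3452 and 4536, no count filter 4120 and 4014, at least 10 counts in every library 3522 and 3537, and all 6 control libraries 4047 and 4489. No call took the opposite direction in these fits. Scaling by library totals alone moved the median of all genes to -0.13, and using no count filter, which tests more genes, to -0.19. Of 177 called genes under the naming rule or in the text, 162 kept the call without the block, 175 with DESeq2, 139 to 158 with 1 library left out, and 124 with any of the 4 left out.

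The median of the basement membrane list changed sign without control monosome replicate 2 (0.39) and in the pairs, with 0.070 without replicate 2 and -0.55 without replicate 1, and that of the ion channel list without control monosome replicate 2 (0.11). Genes that were not called also changed sign. The log2 ratio of *atf-4* was 0.38 without control monosome replicate 2 and, in the pairs alone, 0.29 without replicate 2 and -1.005 without replicate 1. That of *atp-1* was 0.00313 with DESeq2 and with RLE factors, 0.011 with no count filter, 0.29 without control monosome replicate 1, 0.16 without control polysome replicate 2 and, in the pairs alone, 0.047 without replicate 2 and -0.088 without replicate 1. That of *cgh-1* was -0.0175 with library totals only, -0.20 without control monosome replicate 2 and -0.28 without control polysome replicate 1. That of *rpl-11.2* was 0.11 without control monosome replicate 2, 0.27 without control polysome replicate 1 and, in the pairs alone, 0.13 without replicate 1 and -0.42 without replicate 2, and that of *rpl-25.1* 0.42 without control monosome replicate 2 and, in the pairs alone, 0.11 without replicate 2 and -0.44 without replicate 1. The cause of these changes was not tested.

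The data have 2 cultures per fraction from whole animals of a single age, and a fraction pools a range of the gradient, so neither the number of ribosomes on a message nor the tissue it came from was measured. Sedimentation with ribosomes was not checked against a ribosome-releasing treatment in these libraries. Genes with few counts in 1 fraction have wide counting error beside the fitted SE.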
